A study of Mus musculus with 9 samples.

Results

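The 10 core circadian clock genes Clock, Arntl, Per1, Per2, Per3, Cry1, Cry2, Nr1d1, Nr1d2 and Dbp were followed in bulk RNA-seq of whole mouse retina at postnatal day 21 (P21). They were matched by gene symbol from a list drawn up with earlier results of these data known, by a rule that uses no measured value, and make up 10 of the 55487 genes in the deposited table. Each symbol matched 1 row, and all 10 passed the filter on low values in every genotype. The libraries came from 3 genotypes on the C57 BL/6J strain, at 3 libraries per genotype, and each library pooled the retinas of 2 animals. The Cre- controls, labelled WT, came from breeders without the transgene. The tHet retinas carried Chx10::Cre-GFP and were heterozygous for floxed Tet1, Tet2 and Tet3, and the Tet tcKO retinas carried the same transgene and were homozygous for the 3 floxed alleles. The Chx10 promoter drives Cre in retinal progenitors. Because Cre+ animals were crossed among themselves and the controls came from separate breeders, the genotype and the breeding line cannot be told apart in a difference from Cre-. Mice were kept on a light/dark cycle, and the hour at which retinas were dissected is not given in the sources used here, so a difference in hour and a difference in genotype cannot be told apart either.

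The vertebrate clock is a loop of transcription and repression that runs in most cells and takes about a day. CLOCK and ARNTL (also called BMAL1) form a dimer that binds E-boxes and drives the Per, Cry, Nr1d and Dbp genes. PER and CRY proteins return to the nucleus and block the dimer, NR1D1 and NR1D2 (the REV-ERB receptors) repress Arntl and other genes through ROR response elements, and DBP activates genes through D-boxes. The retina keeps a clock of its own, which times photoreceptor disc shedding, melatonin and dopamine, and the level of a clock gene in a single sample therefore depends on the hour at which that sample was taken. TET enzymes oxidise 5-methylcytosine at CpG sites. The comparisons below ask whether loss of the 3 TET enzymes in retinal progenitors left the clock genes at a different level in the juvenile retina, and how far the libraries of a genotype differed among themselves.

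Letters of the loop's binding elements were found in the promoter windows of 6 members. The windows of 4 of these are printed, which between them show letters of the E-box, the D-box and the ROR element core. Only this core of the ROR element was searched, without the bases that flank it, so a match is not a full element. RefSeq windows on GRCm38.p6, from 250 bases before to 50 bases after an annotated start, were at hand for 9 of the 10 members in 13 windows. Per2 had no entry. Capitals mark the E-box CACGTG, the D-box TTATGTAA or TTACGTAA, and the ROR element core AGGTCA, each searched on both strands, so that the core reads TGACCT where it lies on the other strand.
Per3 (chr4:151044616-151044915, minus strand): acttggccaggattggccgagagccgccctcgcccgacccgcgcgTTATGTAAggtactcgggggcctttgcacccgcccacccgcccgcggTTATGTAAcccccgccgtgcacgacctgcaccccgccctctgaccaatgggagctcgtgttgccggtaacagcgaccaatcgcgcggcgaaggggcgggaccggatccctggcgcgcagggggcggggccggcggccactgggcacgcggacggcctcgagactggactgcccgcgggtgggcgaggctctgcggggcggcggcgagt
Per1 (chr11:69098699-69098998, plus strand): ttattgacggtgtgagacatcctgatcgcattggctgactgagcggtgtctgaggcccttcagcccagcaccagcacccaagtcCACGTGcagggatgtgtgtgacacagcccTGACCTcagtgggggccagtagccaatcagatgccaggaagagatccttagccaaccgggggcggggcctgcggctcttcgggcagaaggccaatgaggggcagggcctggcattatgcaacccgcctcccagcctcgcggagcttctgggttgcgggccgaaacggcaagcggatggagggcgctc
Cry1 (chr10:85185005-85185304, minus strand): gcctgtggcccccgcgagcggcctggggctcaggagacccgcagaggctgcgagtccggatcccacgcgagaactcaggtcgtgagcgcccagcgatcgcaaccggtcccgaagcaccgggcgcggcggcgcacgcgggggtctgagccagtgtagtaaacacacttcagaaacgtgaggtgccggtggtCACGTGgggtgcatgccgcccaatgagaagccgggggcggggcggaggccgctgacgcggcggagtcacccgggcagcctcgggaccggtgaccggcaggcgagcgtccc
Nr1d2 (chr14:18239057-18239356, minus strand): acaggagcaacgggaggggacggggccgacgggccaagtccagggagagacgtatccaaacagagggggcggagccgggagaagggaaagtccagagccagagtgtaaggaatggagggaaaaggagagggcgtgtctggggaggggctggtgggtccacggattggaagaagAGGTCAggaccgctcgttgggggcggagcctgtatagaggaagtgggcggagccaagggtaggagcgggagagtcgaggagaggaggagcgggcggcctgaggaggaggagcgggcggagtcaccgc

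Per3 held the only D-box letters among the members' windows, with matches 205 and 158 bases before the start, whereas 1.06% of all 32851 RefSeq mouse promoter windows held such a match. The E-box was read in Per1, 166 bases before the start, and in Cry1, 60 bases before the start, which is 2 of 13 windows beside 7.15% of all windows. The ROR core lay in 4 windows, those of Per1 (137 bases before the start), Nr1d2 (77 before), Clock (119 before) and Arntl (31 after), beside 16.3% of all windows. The cAMP response element TGACGTCA was in 0 of 13 windows and in 1.79% of all windows. No matches overlapped in the 4 printed windows. The members' windows were rich in G and C, with a median of 64.7% against 52.7% over all promoters. These are matches of letters only, and no binding or methylation was measured here.

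Reads counted on genes numbered 9627927 to 21108256 per library, so that 1 read was worth 0.0474 to 0.104 CPM, the unit of all levels below, in which counts are scaled to a common library total. The scarcest member reading, Cry1 in 1 library, still rested on 258 reads. Counting error alone gives a coefficient of variation of 1.54% to 5.36% for a member in a genotype, and the observed one was well above it except for Per1 in Tet tcKO (observed 3.85%, counting 3.78%), Per2 in tHet (6.12% and 5.36%) and Cry1 in tHet (4.36% and 5.34%). Of the targeted genes, Tet3 read 99.2 to 152 CPM in Tet tcKO and 213 to 268 CPM in Cre-, while Tet1 and Tet2 overlapped between these genotypes. These gene counts include exons outside the floxed ones and so do not check the deletions. A ribosomal RNA gene, CT010467.1, took 28.7% of the reads of Tet tcKO replicate 3 and 3.72% of those of tHet replicate 3, against at most 0.226% in the other 7 libraries, which lowers the CPM of every other gene in those libraries. Values are given with CT010467.1 left in the totals, as deposited, and the main results that Tet tcKO replicate 3 touches are given again with it left out, an alternative chosen after seeing the data. With CT010467.1 left out, Per1 in Tet tcKO stood at 48.8 ± 7.97 CPM (SD, n = 3), a spread well above counting error. The retinas also differed in cell makeup. The summed level of 4 rod genes (Gnat1, Pde6b, Nrl and Sag) ran from 12133 to 14195 CPM in Cre-, from 11312 to 13255 in tHet and from 2656 to 5090.4 in Tet tcKO. The sum of 3 cone genes (Arr3, Opn1sw and Gnat2) ran from 239.6 to 338, from 270.3 to 328 and from 755 to 1090.3 CPM. In whole retina, fewer cells of a type and less RNA per cell cannot be told apart, and a member's level is a mean over all these cells.

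Per length of merged exons, Nr1d2 had the highest mean of the members and Per2 the lowest in all 3 genotypes. Levels per length are CPM divided by kilobases of merged exons in the GENCODE annotation. Merged exons join all annotated transcripts of a gene, and which of them the retina uses was not measured, so the order depends on this length. Clock had the longest merged exons of the members (13727 bases) and the highest mean CPM in each genotype. In Cre- retinas Nr1d2 stood at 26.3 ± 2.85 CPM per kb (SD, n = 3), and its libraries lay above those of Nr1d1 at 19.99 ± 1.92. Nr1d1 and Clock (19.6 ± 2.08) overlapped, and both stood above Cry2 at 15.2 ± 1.99. Cry2, Dbp (13.2 ± 1.00), Per3 (10.4 ± 2.90), Arntl (9.87 ± 2.08), Cry1 (9.72 ± 0.884) and Per1 (9.35 ± 2.42) then formed a run in which each overlapped the next. Per2, at 4.57 ± 1.28 CPM per kb, lay below Per1 without overlap.

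**Figure D1:**
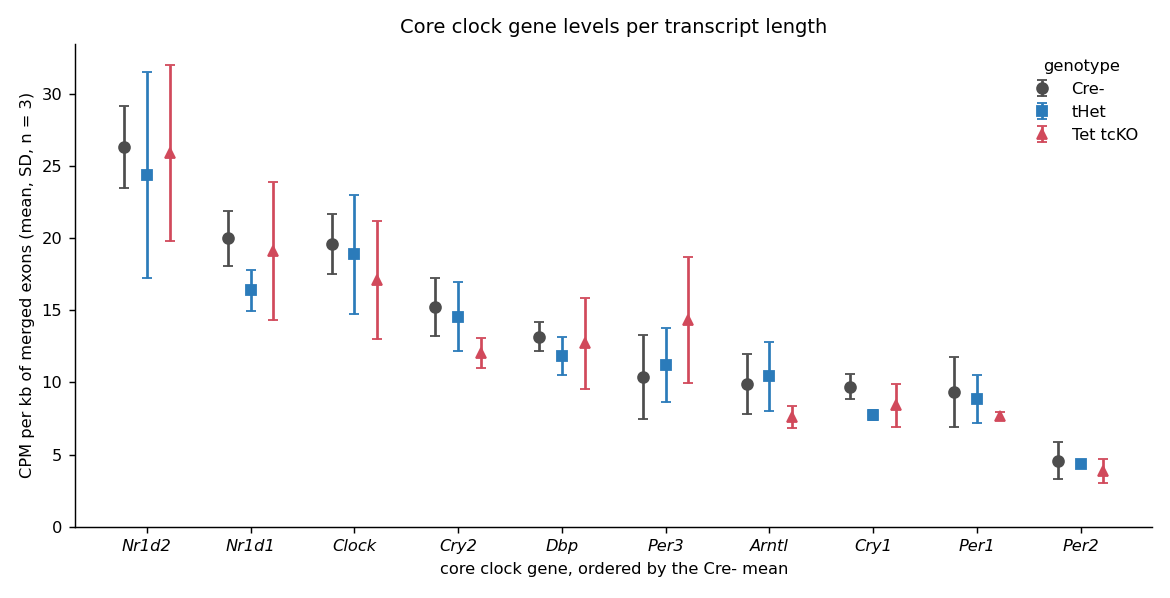
Level of each core clock gene in CPM per kb of merged exons (vertical axis), by gene in the order of the Cre- means (horizontal axis). Points are genotype means and bars the SD over 3 libraries. Nr1d2 stands highest, between 24.3 and 26.3, and Per2 lowest, between 3.89 and 4.57, in all 3 genotypes.

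The same ends of the order were kept in the other genotypes, with fewer gaps. In tHet the only neighbours that did not overlap were Cry1 (7.73 ± 0.337) and Per2 (4.37 ± 0.268). In Tet tcKO, Cry2 (12.1 ± 1.02) did not overlap Cry1 (8.42 ± 1.48), and Arntl (7.60 ± 0.755) did not overlap Per2 (3.89 ± 0.828). Per3 stood after Cry2 and Dbp in Cre- and tHet and ahead of them in Tet tcKO, at 14.3 ± 4.35 CPM per kb, but its Tet tcKO libraries overlapped those of its neighbours, Clock and Dbp. The order of the means was the same in each genotype with CT010467.1 left out, and Nr1d2 then lay above Nr1d1 without overlap in Tet tcKO as well.

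The activators of the loop had lower mean levels in Tet tcKO than in Cre-, without passing the test. Clock (chr5:76209868-76304792), which encodes the partner of ARNTL in the dimer, read 243, 299.6 and 264 CPM in Cre- replicates 1, 2 and 3, 251, 319.7 and 207 CPM in tHet and 264, 270.5 and 169.6 CPM in Tet tcKO. The 3 genotypes overlapped, and the lowest value belonged to Tet tcKO replicate 3. Arntl (chr7:113207465-113314126), the partner without which the loop stops, read 63.2, 92.1 and 67.4 CPM in Cre-, 89.1, 88.6 and 57.7 CPM in tHet and 61.6, 59.2 and 50.8 CPM in Tet tcKO. All 3 Tet tcKO libraries were below all 3 Cre- libraries, the nearest pair being 61.6 and 63.2 CPM, but tHet replicate 3 lay among the Tet tcKO values. That separation was lost when CT010467.1 was left out, with Tet tcKO at 59.2 to 71.2 CPM and Cre- at 63.3 to 92.2 CPM. The fitted log2 fold change of Arntl was −0.36 (SE 0.23, 95% interval −0.83 to 0.12, adjusted p = 0.522) against Cre- and −0.43 (interval −0.91 to 0.043, adjusted p = 0.347) against tHet. Clock was at −0.22 (interval −0.72 to 0.28) and −0.15 (−0.65 to 0.35), and at −0.060 and −0.0073 when CT010467.1 was left out. The differences of Arntl were −0.20 (adjusted p = 0.592) and −0.29 (adjusted p = 0.384) when CT010467.1 was left out, and neither gene passed on either scale.

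The Period genes, which encode the rhythmic repressors, had fitted differences of unlike sign between Tet tcKO and Cre-, and none passed the test. Per1 (chr11:69095217-69109960) read 52.8, 38.9 and 66.2 CPM in Cre-, 43.3, 46.0 and 60.7 CPM in tHet and 44.5, 44.0 and 41.4 CPM in Tet tcKO. Its Cre- libraries alone spanned more than all 3 Tet tcKO libraries, which stood at 43.3 ± 1.66 CPM (SD, n = 3), and at 48.8 ± 7.97 CPM when CT010467.1 was left out. Per2 (chr1:91415982-91459324) read 22.0, 22.9 and 35.4 CPM in Cre-, 24.8, 27.4 and 24.6 CPM in tHet and 18.1, 27.7 and 22.6 CPM in Tet tcKO. For Per2 a single library, Cre- replicate 3, stood above the other 8. Per3 (chr4:151003652-151044665) read 70.3, 126 and 103 CPM in Cre-, 117, 126 and 80.1 CPM in tHet and 129, 183 and 101 CPM in Tet tcKO. It was the member with the widest range, 2.603-fold between Cre- replicate 1 and Tet tcKO replicate 2, and the only one with a positive fitted difference from Cre- in Tet tcKO.

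That difference of Per3 was 0.46 on the log2 scale (SE 0.26, interval −0.086 to 1.01, adjusted p = 0.444), which is 1.38-fold with an interval of 0.942 to 2.01, and against tHet it was 0.33 (interval −0.21 to 0.88). Of the 10 members, Per3 alone had an interval against Cre- that reached a log2 difference of 1. With CT010467.1 left out of the totals the Per3 differences were 0.62 (adjusted p = 0.112) and 0.48 (adjusted p = 0.217). On that scale the Tet tcKO libraries, at 129 to 183 CPM, lay above all 6 others, the highest of which was at 126 CPM. Per1 was at −0.25 (interval −0.72 to 0.23) and Per2 at −0.22 (−0.72 to 0.29) against Cre-. The corresponding values with CT010467.1 left out were −0.087 and −0.056.

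The cryptochromes are flavoproteins that bind and block the activator dimer. Cry1 (chr10:85131700-85185064) read 33.2, 29.2 and 35.0 CPM in Cre-, 26.1, 26.8 and 24.6 CPM in tHet and 33.4, 27.5 and 23.5 CPM in Tet tcKO. All 3 tHet libraries lay below all 3 Cre- libraries, while Tet tcKO spanned both ranges. The tHet libraries were also below the Cre- libraries with CT010467.1 left out, and Tet tcKO, then at 27.5 to 33.4 CPM, lay above tHet at 25.5 to 26.8 CPM. Cry1 in Tet tcKO differed from Cre- by −0.21 and from tHet by 0.11, and by −0.053 and 0.25 on the second scale, none of which passed. The fitted difference between tHet and Cre- was −0.32 (interval −0.77 to 0.13), the largest of any member in that comparison, and did not pass the test (adjusted p = 1.00). Cry2 (chr2:92403646-92434043) read 94.6, 84.5 and 109 CPM in Cre-, 75.5, 95.1 and 105 CPM in tHet and 79.6, 80.3 and 68.8 CPM in Tet tcKO. The Tet tcKO libraries were again all below the Cre- libraries, with tHet spread over both. Cry2 differed from Cre- by −0.33 (interval −0.76 to 0.10, adjusted p = 0.520) and by −0.17 with CT010467.1 left out. On that scale the separation was lost, with Tet tcKO at 79.6 to 96.5 CPM and Cre- at 84.5 to 109.6 CPM, and the lowest Cry2 value of the 9 was in tHet replicate 1 and no longer in Tet tcKO replicate 3.

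Nr1d1, Nr1d2 and Dbp, the repressor receptors and the output factor, are direct targets of the dimer and usually the genes with the deepest daily swing. Nr1d1 (chr11:98767932-98775333) read 62.8, 66.7 and 55.1 CPM in Cre-, 48.7, 55.5 and 47.2 CPM in tHet and 65.6, 69.0 and 41.8 CPM in Tet tcKO. Both the highest and the lowest of the 9 values belonged to Tet tcKO. Nr1d2 (chr14:18204054-18239127) read 149, 154 and 125 CPM in Cre-, 126, 173 and 96.4 CPM in tHet and 152, 165 and 103 CPM in Tet tcKO, with full overlap of the genotypes. Dbp (chr7:45705088-45710203) read 42.2, 39.8 and 36.2 CPM in Cre-, 40.0, 33.7 and 32.6 CPM in tHet and 36.6, 48.2 and 29.3 CPM in Tet tcKO. As with Nr1d1, the Tet tcKO libraries held both ends of the range, and their ratio of highest to lowest was 1.65 for each gene. When CT010467.1 was left out the ratios were 1.18 for Nr1d1 and 1.31 (Dbp), the lowest of the 9 values belonged to tHet libraries, and the Tet tcKO libraries of Nr1d1 (58.7 to 69.0 CPM) lay above those of tHet (48.8 to 55.5 CPM).

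With the deposited totals, the 3 genes had the smallest fitted differences between Tet tcKO and Cre- of the members. They were −0.094 for Nr1d1 (interval −0.56 to 0.37), −0.047 for Nr1d2 (−0.55 to 0.46) and −0.078 for Dbp (−0.54 to 0.39). All 3 changed sign, to 0.067, 0.11 and 0.082, with CT010467.1 left out, and to 0.13, 0.16 and 0.093 without Tet tcKO replicate 3, so no direction is given for them. Against tHet the values were 0.19, 0.10 and 0.077, and between tHet and Cre- they were −0.28, −0.15 and −0.16, none of which passed. Exons of 4 members overlap an exon of a gene on the other strand, which leaves their reads uncertain because the strand setting of the counting is not given in the sources used here. These are Nr1d1 with Thra over 263 bases, Dbp with Sphk2 over 539, Cry2 with D930015M05Rik over 295 and Arntl with Gm45355 over 33.

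**Figure D2:**
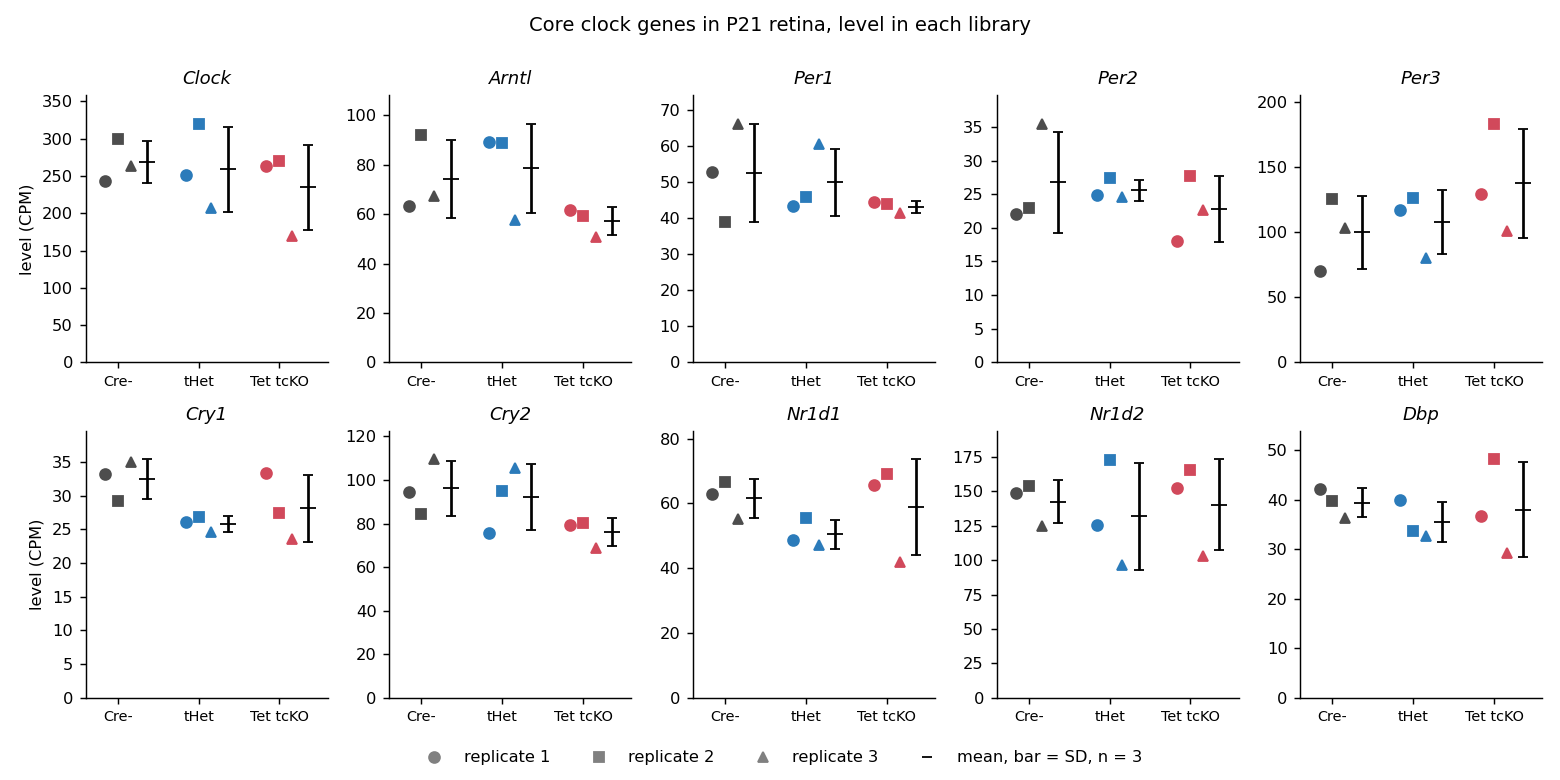
Level of the 10 core clock genes in CPM (vertical axis, from 0) in each library of the 3 genotypes (horizontal axis). Each symbol is a library, by replicate number, and the black marks are the mean and SD over 3 libraries. The genotypes overlap in most panels. Exceptions are Arntl and Cry2, where the 3 Tet tcKO libraries lie below the 3 Cre- libraries with these totals but not with CT010467.1 left out, and Cry1, where the 3 tHet libraries do.

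No clock member was called in any comparison. A gene was called when the absolute log2 fold change was at least 1 and the Benjamini-Hochberg adjusted p from limma was under 0.01. Between Tet tcKO and Cre-, 0 of 10 members were called, beside 3.60% of the 21330 genes tested. At an adjusted p under 0.05 without a fold minimum the count was also 0 of 10, beside 6.50%, and 0 of 10 reached an unadjusted p under 0.05, beside 16.1%. The libraries of 2 of 10 members (Arntl and Cry2, both lower) did not overlap, beside 19.6% of all genes. Between Tet tcKO and tHet, 0 of 10 members were called (background 3.00%), 0 had an adjusted p under 0.05 (5.95%), 0 an unadjusted p under 0.05 (17.5%), and 0 had libraries without overlap (17.0%). Between tHet and Cre-, 0 of 10 were called (0.0422%), 0 had an adjusted p under 0.05 (0.0938%), 0 an unadjusted p under 0.05 (4.55%), and 1, Cry1, had libraries without overlap (11.1%). The separated members differed once CT010467.1 was left out. They were 1 of 10 between Tet tcKO and Cre- (Per3, higher, beside 31.5% of all genes), 3 of 10 between Tet tcKO and tHet (Per3, Cry1 and Nr1d1, all higher, beside 27.7%) and 1 of 10 between tHet and Cre- (Cry1, lower, beside 11.4%). On that scale limma gave an unadjusted p under 0.05 to 1 member against Cre- (Per3) and 1 against tHet (Nr1d1) in Tet tcKO. It gave this to 0 members between tHet and Cre-. Over the 21329 genes then tested, the counts were 4948, 5198 and 1306 in the same order. The edgeR quasi-likelihood test and DESeq2 on recovered reads called 0 members in any comparison, with 2 members in each at an unadjusted p under 0.05. These were Per3 and Arntl in both Tet tcKO comparisons and Cry1 and Nr1d1 between tHet and Cre-. Of the 21330 genes tested, edgeR gave an unadjusted p under 0.05 to 4445 (Tet tcKO versus Cre-), 4767 (Tet tcKO versus tHet) and 1357 (tHet versus Cre-). DESeq2 gave it to 4426, 4707 and 1358 in the same order. With 3 libraries against 3, an exact two-sided permutation test on a single gene cannot give a p below 0.1.

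The members' differences were also no larger in the median than those of all genes tested. The median absolute log2 fold change of the members was 0.219 between Tet tcKO and Cre-, beside 0.245 over all genes tested, 0.187 beside 0.277 between Tet tcKO and tHet, and 0.0984 beside 0.193 between tHet and Cre-. The signed median between Tet tcKO and Cre- was −0.21 for the members and 0.0012 for all genes, with 9 of 10 members below 0. With CT010467.1 left out, these medians were −0.055 and 0.14 and 6 of 10 members were below 0, so the scaling moved all genes by more than 0.1 and the members stayed lower than the median gene by a like amount. The same change of scale moved the split of all called genes from 434 higher and 334 lower to 607 higher and 221 lower. For Tet tcKO and tHet the split moved from 297 higher and 343 lower to 424 higher and 215 lower. Between Tet tcKO and Cre- the interval of every member but Per3 lay within a log2 difference of 1 in either direction, and in the other 2 comparisons the intervals of all 10 did. These intervals limit the size of a difference at the hour or hours sampled and do not show that levels are equal.

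**Figure D3:**
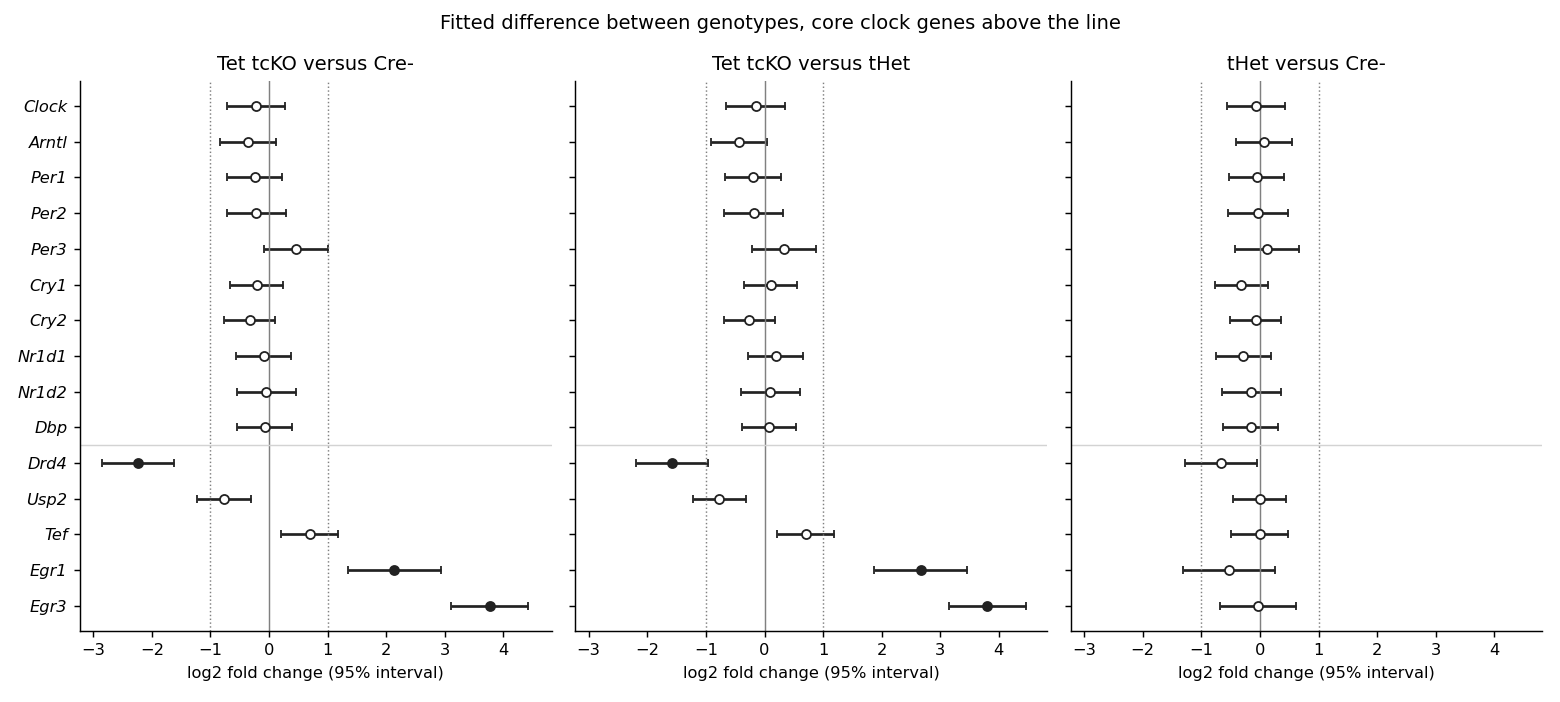
Fitted log2 fold change on log2(CPM + 0.5) values with its 95% interval (horizontal axis) for the 10 core clock genes and 5 neighbouring genes (vertical axis) in the 3 comparisons. Filled points were called, and dotted lines mark a difference of 1. Every interval of the 10 core genes includes 0, while Drd4, Egr1 and Egr3 are called in both Tet tcKO comparisons.

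The spread between libraries of a genotype differed among the members. The SD of log2 levels within genotypes had a median of 0.272 over the members, beside 0.340 over all genes tested and 0.279 over the 6631 tested genes with a mean of 20 to 300 CPM. Cry1 (0.166) and Cry2 (0.192) were at the steady end, at percentiles 3.44 and 6.92 of all genes. Per3 (0.403) and Nr1d2 (0.335) were at the variable end, at percentiles 65.7 and 48.4. The order depended on the totals. When CT010467.1 was left out, Cry1 (0.119), Nr1d1 (0.122) and Dbp (0.153) had the lowest SDs and Per3 (0.341), Per2 (0.325) and Per1 (0.304) the highest, with Cry2 at 0.208 and Nr1d2 at 0.253, beside a median of 0.301 over all genes. Dbp, which swings widely over the day in many tissues, had an SD of 0.233 among these libraries.

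Single libraries stood apart in several members at a time. Tet tcKO replicate 3 was the lowest of the 9 libraries for 6 of 10 members (Arntl, Clock, Cry1, Cry2, Nr1d1 and Dbp). With CT010467.1 left out of the totals it was the lowest for 0 of 10, and tHet replicate 3 was then the lowest for 3, Clock, Cry1 and Nr1d2. Cre- replicate 3 was the highest of the 9 for 4 members, Per1, Per2, Cry1 and Cry2, on both scales. The same library had the lowest Cre- values of Nr1d1, Nr1d2 and Dbp, at 55.1, 125 and 36.2 CPM. Of the genes induced by activity and light, it also held the highest Cre- values of Fos (36.0 CPM, against 23.5 and 18.5), Junb (9.18, against 6.30 and 5.41), Egr1 (45.4, against 24.8 and 23.0) and Nr4a1 (19.5, against 16.6 and 8.65), and of the scarcer Fosb and Npas4. For the remaining genes of that list it did not: Egr3 was lowest there (0.338, against 0.412 and 0.445), and Arc was highest in Cre- replicate 2 (1.65, against 1.22). The part of these genes, or of the hour of dissection, in the high Per1 and Per2 of that library was not tested.

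**Figure D4:**
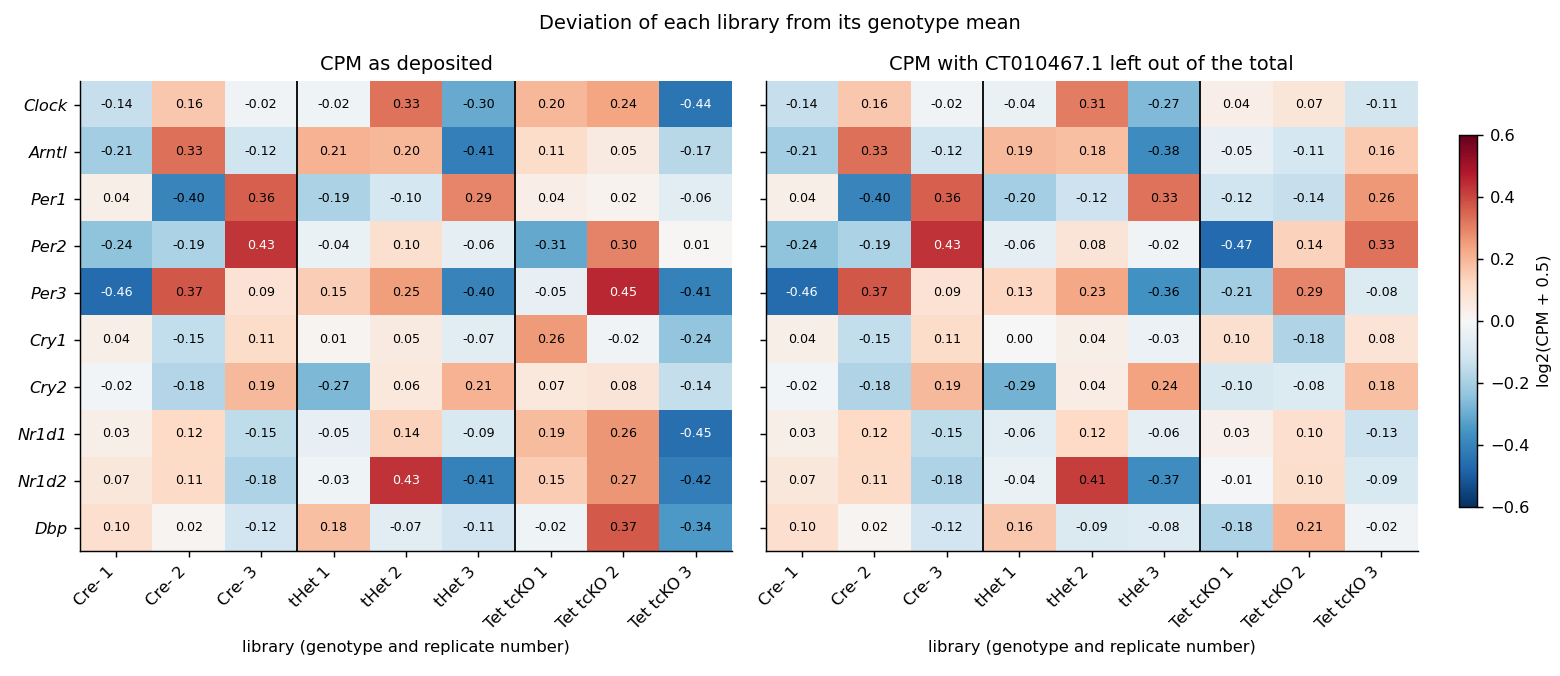
Deviation of each library from its genotype mean in log2(CPM + 0.5) (colour and printed value), for the 10 core clock genes (rows) in the 9 libraries (columns), with CPM as deposited on the left and with CT010467.1 left out of the totals on the right. Tet tcKO replicate 3 is below its genotype mean for 9 of 10 genes on the left and for 5 of 10 on the right, while Cre- replicate 3 is high for Per1 and Per2 on both.

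Deviations from the genotype means were then compared between members over the 9 libraries, which share their totals and include 3 libraries per genotype. As a description, the deviations of Clock and Nr1d2 were most alike (Pearson r = 0.92, and 0.87 with CT010467.1 left out), and those of Per1 and Cry2 had r = 0.84 and 0.90 on the same scales. Per1 and Arntl were the most opposed pair (−0.78 and −0.64). Of the 45 pairs, 31 had r above 0 with the deposited totals and 23 with CT010467.1 left out, so the likeness between members moved with the totals. For Nr1d1 and Dbp r was 0.75 with the deposited totals and 0.23 without CT010467.1.

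Among the 11883 tested genes with a mean of at least 5 CPM, the genes whose deviations were most like those of Dbp were Cradd (r = 0.98), Rtbdn (0.98), Stk39 (0.98), Ccdc126 (0.97) and Gm4792 (0.96). The first 3 remained the first 3 with CT010467.1 left out, while Ccdc126 and Gm4792 went to ranks 34 and 48. For Per2 they were Gm13619 (0.95), Col27a1 (0.95), Pcdhb6 (0.94), Smtn (0.93) and Mirg (0.90), none of them a clock gene of the lists used here. For Arntl they were Slc7a6 (0.99), 9430091E24Rik (0.98), Zadh2 (0.98), Polh (0.98) and Brca1 (0.98). On the scale without CT010467.1, the gene most like Per2 went to rank 7, Slc7a6 to rank 24 for Arntl and Polh to rank 68. These values rest on 9 libraries that share their totals and are given as a description, without a test.

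Around the core loop, 36 further genes of the clock and of retinal rhythms were read from the same fit. Npas2, a paralogue of Clock, read 3.24, 2.74 and 3.51 CPM in Cre-, 2.66, 3.32 and 1.42 CPM in tHet and 2.55, 3.16 and 0.963 CPM in Tet tcKO, and its difference from Cre- did not pass the test (log2 fold change −0.52, adjusted p = 0.613). In both Tet tcKO comparisons, 0 of 2 activator paralogues, 0 of 3 ROR receptors, 0 of 3 E-box repressors, 0 of 3 D-box factors, 0 of 3 kinases and 0 of 1 other gene (Timeless) passed either threshold. Over all genes tested, 6.50% against Cre- and 5.95% against tHet had an adjusted p under 0.05. The median log2 fold changes of these lists between Tet tcKO and Cre- were −0.24, −0.46, −0.55, −0.14, 0.16 and −0.19, beside 0.0012 over all genes. These medians are for the deposited totals. With CT010467.1 left out, the median over all genes was 0.14, and Hlf, the D-box factor at the list median of −0.14, was at 0.022. Between tHet and Cre-, 0 genes of any of these lists passed.

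The repressors that compete at E-boxes were low in Tet tcKO relative to Cre- without passing the test. Bhlhe40 (DEC1) read 46.3, 42.6 and 47.6 CPM in Cre-, 28.0, 29.1 and 43.1 CPM in tHet and 28.0, 39.0 and 25.3 CPM in Tet tcKO, a log2 difference of −0.58 (adjusted p = 0.185). Bhlhe41 (DEC2) read 62.8, 76.3 and 74.8 CPM in Cre- and 56.4, 62.2 and 38.6 CPM in Tet tcKO, a difference of −0.46 (adjusted p = 0.308). Ciart, a circadian repressor named after its values were seen, was at −0.55 (adjusted p = 0.218). For all 3 the Tet tcKO libraries lay below the Cre- libraries, with CT010467.1 in the totals and with it left out. Of all genes, 19.6% and 31.5% had no overlap in this comparison on these scales, in either direction. With CT010467.1 left out, Bhlhe40 was at −0.42 (adjusted p = 0.213) and Bhlhe41 at −0.30 (adjusted p = 0.243) relative to Cre-. Against tHet, with the deposited totals, Bhlhe40 was at −0.11, Bhlhe41 at −0.32 and Ciart at −0.65, and none passed. Bhlhe40 was at 0.028 against tHet with CT010467.1 left out.

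Among the D-box factors, Tef and the core member Dbp belong to the same family of activators, and Nfil3 is their repressor. Tef read 145, 156 and 139.8 CPM in Cre-, 144, 181 and 120.3 CPM in tHet and 298, 262 and 174 CPM in Tet tcKO. All Tet tcKO libraries lay above all Cre- libraries, and 1 tHet library, at 181 CPM, lay above the lowest Tet tcKO library. With CT010467.1 left out, Tet tcKO (244 to 298 CPM) lay above tHet (125 to 181 CPM) as well as Cre-. Of all genes, 19.6% had no overlap between Tet tcKO and Cre- with the deposited totals. With CT010467.1 left out the shares were 31.5% against Cre- and 27.7% against tHet. The differences of 0.70 from Cre- (interval 0.21 to 1.18, adjusted p = 0.0870) and 0.70 from tHet (adjusted p = 0.0884) did not pass the main test at either threshold. With CT010467.1 left out they were 0.86 (adjusted p = 0.00376) and 0.85 (adjusted p = 0.00488), past an adjusted p of 0.05 but short of the fold minimum. Hlf was at −0.14 and Nfil3 at −0.33 relative to Cre-, and neither passed.

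Of the ubiquitin adaptors and proteases, 0 of 5 were called, beside 3.60% of all genes against Cre- and 3.00% against tHet. At an adjusted p under 0.05, 1 of 5 passed in both comparisons, beside 6.50% and 5.95%. It was Usp2, a deubiquitinase whose transcript follows the clock in many tissues. Usp2 read 92.3, 60.6 and 82.3 CPM in Cre-, 77.1, 92.4 and 64.1 CPM in tHet and 43.5, 44.2 and 47.4 CPM in Tet tcKO. The Tet tcKO libraries lay below all 6 others with these totals. When CT010467.1 was left out, Tet tcKO ran from 43.5 to 66.5 CPM and overlapped Cre-, whose lowest library was at 60.6 CPM. The log2 fold change of Usp2 was −0.77 against Cre- (SE 0.22, adjusted p = 0.0361) and −0.77 against tHet (adjusted p = 0.0405). With CT010467.1 left out the differences were −0.61 (adjusted p = 0.0875) and −0.63 (adjusted p = 0.0829), and neither passed.

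Of the melatonin and dopamine rhythm genes, 5 of 8 passed the filter (Asmt, Mtnr1a and Mtnr1b did not). Against Cre- and against tHet, 1 of these 5 was called, beside 3.60% and 3.00% of all genes. It was Drd4, the dopamine D4 receptor of photoreceptors, whose transcript is known to cycle in the retina. Drd4 read 78.1, 51.8 and 52.5 CPM in Cre-, 45.1, 55.0 and 20.9 CPM in tHet and 11.7, 14.7 and 10.5 CPM in Tet tcKO. All Tet tcKO libraries lay below the other 6, with tHet replicate 3 nearest. Its log2 fold change was −2.25 against Cre- (SE 0.29, adjusted p = 4.42e-05), which is 0.211-fold, and −1.58 against tHet (adjusted p = 0.00187). The call against tHet was lost without tHet replicate 1 (adjusted p = 0.0148), tHet replicate 2 (0.0134), Tet tcKO replicate 1 (0.0163) or Tet tcKO replicate 3 (0.0379). The summed rod genes moved the same way, with means of 13449 CPM for Cre- and 3584 CPM for Tet tcKO. Sums for other cell types went either way. Those of Trpm1, Grm6 and Prkca of bipolar cells (1218 and 471 CPM) and Rlbp1, Glul and Slc1a3 of Müller glia (1374 and 647 CPM) were lower, though not Slc1a3 alone. Those of the cone genes (285 and 909 CPM) and of Gad1, Slc6a9 and Tfap2b of amacrine cells (477 and 491 CPM) were not. The part of any of these cell types in the Drd4 result was not tested. Aanat, Th, Adcy1 and Opn4, the other genes of this list, were not called.

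Of the genes induced by activity and light, 2 of 8 were called, both higher in Tet tcKO against either other genotype. Over all genes tested, 3.60% were called against Cre- and 3.00% against tHet. Egr1, an immediate early transcription factor, read 24.8, 23.0 and 45.4 CPM in Cre-, 10.2, 49.8 and 16.4 CPM in tHet and 136, 137 and 123 CPM in Tet tcKO. Its log2 fold change was 2.14 against Cre- (SE 0.38, adjusted p = 0.00103) and 2.67 against tHet (adjusted p = 0.000141). The call against Cre- was lost without Tet tcKO replicate 1 (adjusted p = 0.0113) or replicate 3 (0.0320), and that against tHet without Tet tcKO replicate 3 (0.0146). Egr3, of the same family, read 0.412, 0.445 and 0.338 CPM in Cre-, 0.432, 0.208 and 0.521 CPM in tHet and 11.7, 12.5 and 11.0 CPM in Tet tcKO, with log2 fold changes of 3.77 (adjusted p = 1.90e-07) and 3.80 (adjusted p = 2.40e-07). The 6 values outside Tet tcKO were near the level of 3 reads, which is 0.142 to 0.312 CPM by library, so these folds depend on the pseudocount. Fos, Fosb, Junb, Nr4a1, Arc and Npas4 were not called, and Fos read 23.5, 18.5 and 36.0 CPM in Cre- beside 22.7, 28.0 and 25.8 CPM in Tet tcKO. Per1 and Per2, which light induces in the clock of the brain, had fitted differences of −0.25 and −0.22 from Cre- in the same Tet tcKO libraries.

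**Figure D5:**
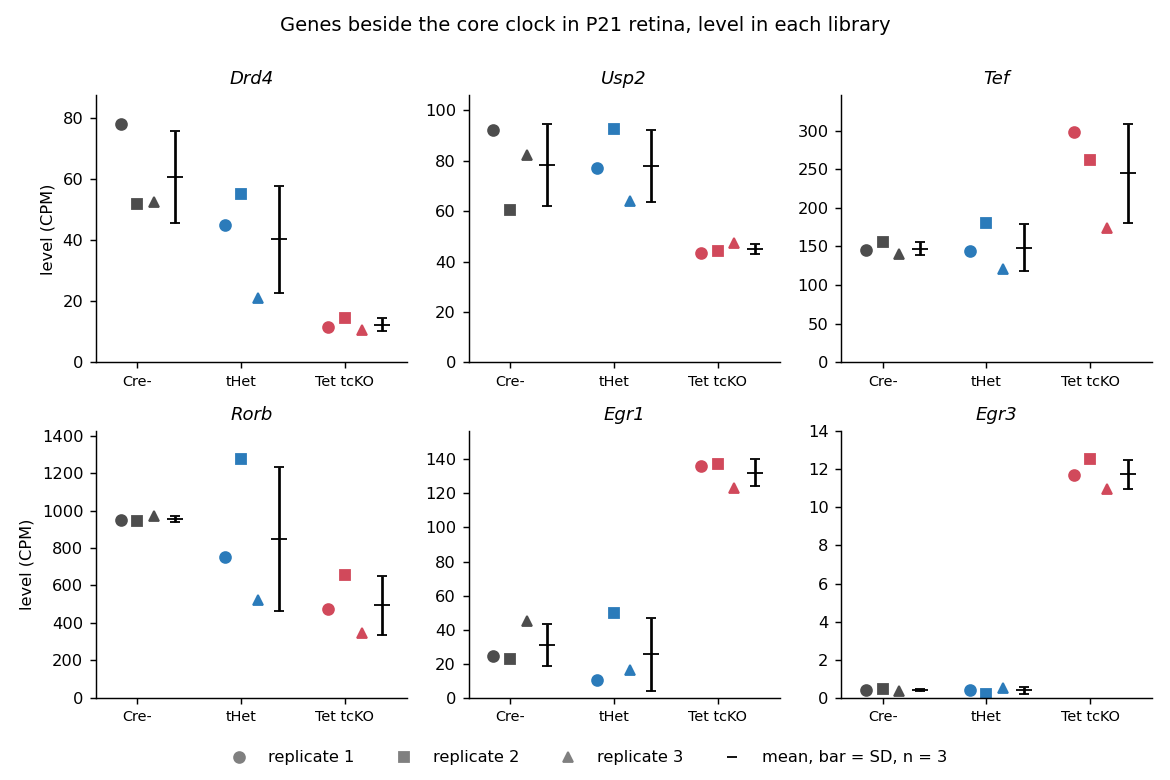
Level in CPM (vertical axis, from 0) of 6 genes beside the core clock in each library of the 3 genotypes (horizontal axis). Symbols are libraries by replicate number, and black marks are the mean and SD over 3 libraries. Drd4, between 10.5 and 14.7 CPM, and Usp2 lie low in the 3 Tet tcKO libraries (Usp2 overlaps Cre- once CT010467.1 is left out of the totals) and Egr1 and Egr3 lie high. Rorb, a ROR receptor shown after its values were seen, lies below all Cre- libraries in Tet tcKO (adjusted p = 0.0566) and overlaps tHet. Of all genes tested, 19.6% had no overlap between Tet tcKO and Cre-, in either direction.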

How the data were processed

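Whole-retina RNA of 9 libraries, 3 per genotype, was depleted of ribosomal RNA and made into stranded libraries. Per the labels and the submitters' processing notes, the authors trimmed reads with Trim Galore 0.6.7, aligned them to mm10 with STAR 2.7.0f and counted them on genes with HTSeq 0.11.2. The authors deposited CPM values (counts scaled to a common library total) per gene, with columns of their own edgeR 4.2.2 comparisons (fold changes, p-values and false discovery rates) that were not used. The annotation release is not given, nor are the settings for strand and overlapping genes, in the sources used here.

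Each CPM value corresponded to a whole number of reads (100%, within 0.01 reads), and reads were recovered from them for the count tests. Depth was 9627927 to 21108256 reads on genes per library, and the floor of 3 reads accounts for counting error alone. No pair of libraries of a genotype held identical values. The main test was limma 3.58.1 in R 4.3.3 on log2(CPM + 0.5), with 1 mean per genotype over all 9 libraries, eBayes with trend and Benjamini-Hochberg adjustment over 21330 genes that reached 0.5 CPM in 3 or more libraries. Fold changes are on that scale and understate those of low genes. Alternatives were pseudocounts of 0.1 and 1, no filter, a filter of 1 CPM, TMM and upper-quartile scaling, count tests on the recovered reads (edgeR 4.0.16, DESeq2 1.42.0), a block for replicate number, fits to the 6 libraries of a comparison alone, fits without each library in turn, and, chosen after seeing the data, CT010467.1 left out of the totals. On simulated data for Tet tcKO versus Cre- with 20722 genes, limma called 194 of 200 genes changed by a log2 fold change of 2 in size (97%), with 2 false calls. The planted changes were larger than any fitted difference of a member, which was at most 0.46 in size. The 97% therefore does not apply to differences of the members' size.

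The members and lists were chosen with earlier results of these data known. The genes named by plan were the 10 members, genes of the further lists called by either threshold, Npas2, Tef, Hlf, Nfil3, Bhlhe40 and Bhlhe41, and the 5 genes most like Dbp, Per2 and Arntl. Cell type markers were named where given beside a result. Ciart and Rorb were added after their values were seen. Positions are from GENCODE release M21 on GRCm38, which matched 55141 of 55487 identifiers, and promoters are from RefSeq on GRCm38.p6. P-values measure the spread between pooled libraries of 2 animals each. The rod marker list was summed without 1 gene that is not reported here. Plots used matplotlib 3.10.9 (Python 3.11.15).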

Additional observations from a re-analysis of the deposited data

How the results depend on the processing

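In all 20 alternatives for each comparison, 0 of 10 clock members were called and 0 had an adjusted p under 0.05. Libraries with the same replicate number come from different animals. Whether they shared a batch or an hour of dissection is not given in the sources used here. Deviations of same-numbered libraries correlated at a mean of 0.111 (from −0.35 to 0.56, 5 of 9 pairs over 0.1) and those of other numbers at −0.0515. With the replicate block, 1127, 1125 and 40 genes were called in the 3 comparisons, in the order Tet tcKO versus Cre-, Tet tcKO versus tHet and tHet versus Cre-, against 768, 640 and 9 without it, and 0 members.

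Counts of called genes that moved by more than 1.5-fold were 417, 351 and 1 with no expression filter, 1046 and 40 with DESeq2 (the last 2 comparisons), and 1013 and 1 with only the 6 libraries compared (likewise). TMM scaling, upper-quartile scaling, edgeR and CT010467.1 left out each gave 1 between tHet and Cre-. Leaving out a library gave 360 to 976, 287 to 959 and 0 to 17 called genes. In the first comparison the count moved without Cre- replicate 3 (422), Tet tcKO replicate 1 (360) or Tet tcKO replicate 3 (430). In the second it moved without tHet replicate 1 (339), Tet tcKO replicate 1 (287) or Tet tcKO replicate 3 (373). In the third it moved without Cre- replicate 3 (4), tHet replicate 3 (17), Tet tcKO replicate 1 (5) or Tet tcKO replicate 3 (0). The cause of these moves was not tested.

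Signs of small uncalled differences changed as follows. With CT010467.1 left out, the log2 difference from Cre- in Tet tcKO was 0.067 for Nr1d1, 0.11 for Nr1d2, 0.082 for Dbp and 0.022 for Hlf, and that of Bhlhe40 from tHet was 0.028. With upper-quartile scaling, Arntl in tHet versus Cre- was at −0.0032. Over the 9 fits that each left out a library, the Tet tcKO versus Cre- values ran from −0.23 to 0.13 for Nr1d1, −0.18 to 0.16 for Nr1d2, −0.26 to 0.093 for Dbp and −0.28 to 0.12 for Hlf. The Tet tcKO versus tHet values ran from −0.30 to 0.067 for Clock, −0.020 to 0.23 for Cry1, −0.11 to 0.25 for Dbp, −0.10 to 0.32 for Nr1d2, −0.29 to 0.082 for Bhlhe40, −0.40 to 0.081 for Nfil3 and −0.45 to 0.23 for Npas2. The tHet versus Cre- values ran from −0.033 to 0.28 for Arntl, −0.23 to 0.079 for Clock, −0.17 to 0.065 for Cry2, −0.36 to 0.055 for Nr1d2, −0.25 to 0.12 for Per1, −0.15 to 0.18 for Per2 and −0.11 to 0.32 for Per3.

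Egr3 in both Tet tcKO comparisons and Drd4 against Cre- were called in all 20 alternatives. Drd4 against tHet was called in 15 of 20, with adjusted p from 2.72e-06 to 0.0379, and not without a filter (0.0125) or without tHet replicate 1 (0.0148), tHet replicate 2 (0.0134), Tet tcKO replicate 1 (0.0163) or Tet tcKO replicate 3 (0.0379). Egr1 was called against Cre- in 17 of 20, but not without a filter (0.0117), Tet tcKO replicate 1 (0.0113) or Tet tcKO replicate 3 (0.0320), and against tHet in 19 of 20, but not without Tet tcKO replicate 3 (0.0146). Adjusted p under 0.05 was kept by Usp2 in 12 of 20 alternatives against Cre- and 7 of 20 against tHet, and reached by Tef in 7 of 20 in each. Depth, of 9627927 reads in the shallowest library, limits the genes near 3 reads, such as Egr3 outside Tet tcKO, and not the 10 members.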
